A study of Mus musculus with 2 samples.

Results

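The genes described here are 10 markers of B cell development, chosen by symbol among the 32285 genes of the count table: the precursor genes Vpreb1, Vpreb3, Igll1, Rag1, Rag2 and Dntt, the mature genes Ighd, Ms4a1 and Fcer2a, and Ighm, which is used at both stages. They were measured by droplet single-cell RNA sequencing (scRNA-seq) of temporomandibular joints (TMJs) injected with complete Freund's adjuvant (CFA), an emulsion of killed mycobacteria in oil that inflames the joint. The WT CFA library came from C57BL/6 mice. The Prox1 mutant CFA library came from C57BL/6 mice with 1 lost copy of Prox1 (Prox1+/-), a transcription factor of lymphatic endothelium. Mice of both groups were 8 to 10 weeks old by the sample records. They were female by the text of the study. The number of mice pooled and the interval between CFA and dissection are not given in the sources used here, and no uninjected joint was analysed here. Each condition had 1 library, so the errors given are counting errors, spread between mice is unknown, and the conditions were not tested against each other. B lineage cells were defined without any of the 10 genes, as cells with at least 3 unique molecular identifiers (UMIs, 1 per captured transcript) of Cd79a and Cd79b together, the signalling chains of the B cell receptor. There were 126 such cells among 4352 kept cells in WT and 122 among 5757 in the mutant, 2.90% (95% interval 2.42 to 3.44) and 2.12% (1.76 to 2.53). At the threshold itself, 7 WT and 10 mutant cells held exactly 3 such UMIs, and 16 and 37 other kept cells held 2.

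B cells arise from marrow progenitors by assembling immunoglobulin genes in a fixed order. Rag1 and Rag2 cut the DNA at the gene segments, and Dntt, terminal deoxynucleotidyl transferase, adds untemplated nucleotides at the joints of the heavy chain gene. A finished mu heavy chain, encoded by Ighm, is brought to the surface by the surrogate light chain, made of Vpreb1 and Igll1 (lambda 5), and this pre-B cell receptor signals for division and for light chain rearrangement. Vpreb3 is a related protein that is kept inside precursor cells. Cells at later stages lose the surrogate light chain and go on to express Ighd (the delta heavy chain), Ms4a1 (CD20) and Fcer2a (CD23), the last a mark of follicular B cells.

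The genes lie in a few compact loci of GRCm38, by the GENCODE M21 annotation. Igll1 (ENSMUSG00000075370, chr16:16860671-16863985) and Vpreb1 (ENSMUSG00000059305, chr16:16868403-16870843) lie on the minus strand with 4417 bases between them. Rag2 (ENSMUSG00000032864, chr2:101624718-101632529, plus strand) and Rag1 (ENSMUSG00000061311, chr2:101638282-101649501, minus strand) are 5752 bases apart. Ighd (ENSMUSG00000104213, chr12:113406604-113416324) and Ighm (ENSMUSG00000076617, chr12:113418558-113422730) are constant region genes on the minus strand with 2233 bases between them. Vpreb3 (ENSMUSG00000000903) is at chr10:75943057-75949657, Dntt (ENSMUSG00000025014) at chr19:41029275-41059525, Ms4a1 (ENSMUSG00000024673) at chr19:11249675-11266241 and Fcer2a (ENSMUSG00000005540) at chr8:3681737-3694175. Rag1 lies within B230118H07Rik on the same strand, so the division of its reads between these genes is uncertain. Vpreb1 has a near copy, Vpreb2 (ENSMUSG00000059280, chr16:17980428-17981273), whose transcript was identical at 739 of 759 aligned bases (97.4%), so reads could be divided between them too.

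RefSeq (GRCm38.p6) gave promoter sequences for 7 of the 10 genes, and none for Ighm, Ighd and Ms4a1. The 250 bases before the RefSeq start are shown for Vpreb1 and Igll1, which were found in the same cells, and for Vpreb3, which was found in a wider set of cells. That start lies downstream of the GENCODE gene start for Vpreb1 and Vpreb3, so their windows fall inside the GENCODE gene bounds given above. Capitals mark E boxes (CANNTG, a pattern that matches the same sites on both strands), the motif class bound by E proteins such as Tcf3.
Vpreb1, chr16:16869256-16869505, minus strand: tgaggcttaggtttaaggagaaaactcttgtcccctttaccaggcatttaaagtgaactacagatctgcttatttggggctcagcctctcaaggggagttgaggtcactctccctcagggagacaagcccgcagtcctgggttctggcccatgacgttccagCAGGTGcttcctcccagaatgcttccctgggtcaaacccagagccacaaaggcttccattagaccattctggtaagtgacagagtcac
Igll1, chr16:16863986-16864235, minus strand: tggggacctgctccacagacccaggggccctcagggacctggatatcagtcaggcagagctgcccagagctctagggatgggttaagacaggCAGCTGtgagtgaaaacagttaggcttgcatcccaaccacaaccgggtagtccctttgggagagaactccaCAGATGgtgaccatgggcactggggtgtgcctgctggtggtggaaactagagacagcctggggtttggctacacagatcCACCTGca
Vpreb3, chr10:75948050-75948299, plus strand: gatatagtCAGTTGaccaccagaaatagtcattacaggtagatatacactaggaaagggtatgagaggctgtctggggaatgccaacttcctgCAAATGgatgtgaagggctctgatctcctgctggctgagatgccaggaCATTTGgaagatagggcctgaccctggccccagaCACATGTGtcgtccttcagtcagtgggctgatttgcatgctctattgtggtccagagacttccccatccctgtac
The Vpreb1 window held 1 E box, the Igll1 window 3 and the Vpreb3 window 5, of which the last pair overlap. An E box is common: 66.2% of all 32851 promoter windows of this length held at least 1. The Ikaros core (TGGGAA, searched on both strands) was in 21.6% of all windows and in those of Rag1 and Fcer2a. These matches describe letters only and were not tied to the expression values.

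Sequencing gave 5709 WT barcodes with 53517206 UMIs and 7846 mutant barcodes with 62446987. Prox1 had 11.6 CPM (counts per 1000000 UMIs; 95% interval 10.7 to 12.6) in kept WT cells and 5.80 CPM (5.18 to 6.47) in kept mutant cells. Pax5 and Ebf1, factors of the B lineage that the rule did not use, each had a UMI in 86.1% to 98.4% of the B lineage cells. Joint tissue markers were present in both libraries and unequal: Col2a1, the cartilage collagen, had 635 CPM in the other kept WT cells and 42.1 CPM in the mutant cells, while the erythrocyte list (Hba-a1, Car2, Slc4a1) had 9666 and 22234 CPM. Whether these differences in the cells that were captured bear on the B lineage cells was not tested. Depth and mixing also differed. B lineage cells had a median of 5489 UMIs in WT (range 2136 to 112787) and 12861.5 in the mutant (1375 to 123615). Cells with at least 10 UMIs over the T, macrophage, neutrophil and mesenchymal marker lists numbered 14 of 126 in WT and 45 of 122 in the mutant, where 28 held 10 or more macrophage UMIs and 27 held 10 or more neutrophil UMIs. These are called mixed cells here, whatever their nature. Their median depth in the mutant was 24646 UMIs, against 6616 in the remaining 77 cells. The rule for mixed cells did not use the erythrocyte list, of which 0 WT and 14 mutant B lineage cells held 10 or more UMIs. Cells outside the mixed group may thus still hold such UMIs. Most levels, shares, cell classes and gene lists are therefore also given without the mixed cells, in the text or a figure. Results after thinning to equal depth, for pairs of genes within cells, by number of Vpreb3 UMIs and for levels in cells with Dntt are not. Libraries shared 4 kept barcodes, none of them of the B lineage.

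All 10 genes were higher in B lineage cells than in the other kept cells of both libraries by at least 2-fold, a level that 5.29% of 11050 genes tested reached. Vpreb3 was the most concentrated, at 1163 CPM (1106 to 1221) in WT B lineage cells against 0.979 (0.717 to 1.31) in other cells, and at 274 (254 to 295) against 1.64 (1.31 to 2.03) in the mutant. B lineage cells held 97.2% and 89.5% of its UMIs. Dntt was less concentrated, with 47.9% and 45.7% of its UMIs in B lineage cells. For Fcer2a the WT ratio rested on 2 UMIs in 1 cell, and its interval included a lower level than in other cells (log2 ratio 1.78, -1.36 to 3.83). For the other 9 genes the lowest interval bound of the log2 ratio in either library was 3.76.

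**Figure D1:**
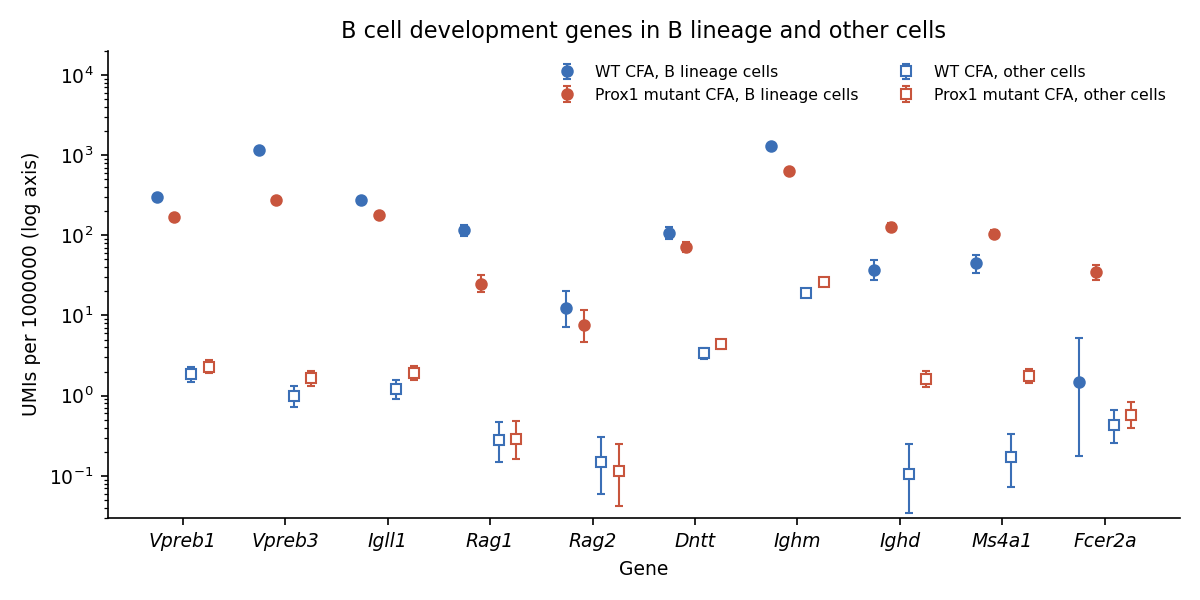
UMIs per 1000000 (log axis) of each gene in B lineage cells (filled circles) and other kept cells (open squares) of the WT CFA and Prox1 mutant CFA libraries, with exact Poisson 95% intervals. Each gene is higher in B lineage cells, with overlapping intervals for Fcer2a in WT, and Vpreb3 and Rag1 are lower, and Ighd, Ms4a1 and Fcer2a higher, in mutant than in WT B lineage cells.

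The surrogate light chain genes were found in fewer mutant B lineage cells, and at more UMIs per cell, before any scaling for depth, where they were found. In WT, 50 of 126 cells held Vpreb1 (39.7%, 31.1 to 48.8), and in the mutant 25 of 122 did (20.5%, 13.7 to 28.7), which is a change of -19.2 percentage points (-29.9 to -7.79). The cells with Vpreb1 held a median of 5 UMIs in WT (highest 33) and 20 in the mutant (highest 41). Igll1 followed it closely, in 50 WT cells (39.7%) and 26 mutant cells (21.3%), with medians of 6.5 and 17 UMIs. These medians are raw counts, and B lineage cells had a median depth of 5489 UMIs in WT and 12861.5 in the mutant. The positive cells also differed in makeup, since 20 of the 50 WT and 18 of the 25 mutant cells with Vpreb1 held Dntt. Summed over all B lineage cells, Vpreb1 reached 300.4 CPM (272 to 331) against 169 (153 to 185) in mutant cells, and Igll1 273 (246 to 302) and 178 (163 to 195). After each cell was thinned to 2000 UMIs, which left out 1 mutant cell, the differences in share shrank to -8.07 points (-18.0 to 2.07) for Vpreb1 and -8.80 (-19.0 to 1.68) for Igll1, both with intervals that include 0. The near copy Vpreb2 had a UMI in 11 WT and 19 mutant cells.

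Vpreb3 showed a larger gap. It was found in 117 of 126 cells of the WT library (92.9%, 86.9 to 96.7) and in 68 of 122 of the mutant library (55.7%, 46.5 to 64.7), and after thinning in 84.1% and 38.0%, a difference of -46.1 points (-55.9 to -34.6). Positive cells held a median of 12 UMIs (WT) or 4 (mutant). Positive mutant cells were of different kinds. Of the mutant cells, 32 held 1 to 3 Vpreb3 UMIs, and of these 26 also had Ighd, 28 Ms4a1 and 21 Fcer2a. A further 22 mutant cells held 10 or more, of which 11 had Ighd and none had Ms4a1 or Fcer2a. Mixed cells numbered 13 of the 32 and 0 of the 22. In WT, 81 cells held 10 or more and 8 held 1 to 3. The share of other kept cells with Vpreb3, in which stray RNA and B cells below the threshold cannot be told apart, was 0.710% in WT and 1.31% in the mutant, at median depths of 7044.5 and 4745 UMIs, and among cells with macrophage markers 1.06% and 2.04%.

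Of the recombination genes, Rag1 was found in fewer mutant cells, while the shares of Rag2 and Dntt differed by amounts whose intervals include 0. Rag1 had a UMI in 61 WT cells (48.4%, 39.4 to 57.5) and 22 mutant cells (18.0%, 11.7 to 26.0), at 116 CPM (98.4 to 135) and 25.0 CPM (19.4 to 31.9), and in 31.7% and 9.09% of cells after thinning. Rag2, its partner in the same enzyme, was thinly sampled, with 17 UMIs in 12 WT cells and 20 UMIs in 15 mutant cells, and its log2 ratio of mutant to WT of -0.71 had an interval from -1.72 to 0.31. Dntt, the earliest of the genes, was found in nearly equal shares, 22 of 126 cells in WT (17.5%, 11.3 to 25.2) against 20 of 122 in the mutant (16.4%, 10.3 to 24.2), a change of -1.07 points (-10.4 to 8.38). The thinned shares were 14.3% and 12.4%.

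The mature genes went the other way. Ighd was in 34 WT cells (27.0%, 19.5 to 35.6) and 82 mutant cells (67.2%, 58.1 to 75.4), at 37.4 CPM (27.8 to 49.1) and 128 CPM (115 to 142). Ms4a1 was in 17 WT cells (13.5%) and 67 mutant cells (54.9%), at 44.7 CPM (34.2 to 57.4) and 103 CPM (91.3 to 116). Fcer2a was in 1 WT cell, with 2 UMIs, and in 45 mutant cells (36.9%, 28.3 to 46.1), with 91 UMIs. Thinned shares differed in the same direction, by 18.6 points (8.66 to 28.3) for Ighd, 22.7 (12.9 to 32.2) for Ms4a1 and 8.30 (2.98 to 14.8) for Fcer2a. The shares in other kept cells differed too. Ighd had a UMI in 5 of 4226 other WT cells (0.118%) and 75 of 5635 other mutant cells (1.33%), Ms4a1 in 0.166% and 1.30%. Of those mutant cells, 13 of 75 with Ighd and 22 of 73 with Ms4a1 also held a UMI of Cd79a or Cd79b, so they may include B cells. Ighm was in nearly every B lineage cell, 123 of 126 (97.6%) in WT and 115 of 122 (94.3%) in the mutant, at 1312 CPM (1252 to 1375) and 639 (609 to 671).

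**Figure D2:**
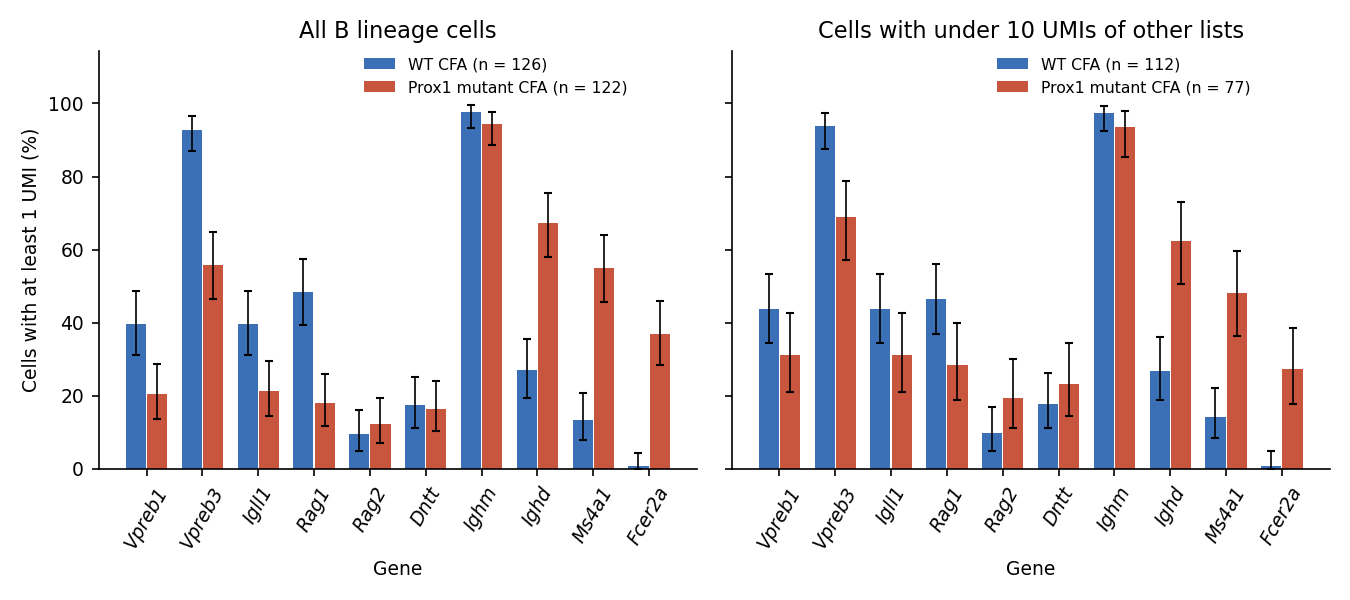
Share of B lineage cells (%) with at least 1 UMI of each gene in WT CFA (blue) and Prox1 mutant CFA (red), over all B lineage cells (left) and over those with under 10 UMIs of T, macrophage, neutrophil and mesenchymal markers (right), with Clopper-Pearson 95% intervals. Vpreb3 and Rag1 are less frequent and Ighd, Ms4a1 and Fcer2a more frequent in the mutant in both panels, while Dntt differs little.

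By summed level, all 10 genes passed the minimum of 20 UMIs, and 3 of them were at least 2-fold lower in mutant B lineage cells (Vpreb3, Rag1 and Ighm; 13.2% of 11050 genes tested were) and 3 at least 2-fold higher (Ighd, Ms4a1 and Fcer2a; 9.44% of genes tested were). The median log2 ratio of mutant to WT was -0.77 over the 6 precursor genes and 1.78 over the 3 mature genes, against -0.17 over all genes tested. The lower calls depended on which cells were kept, and the higher ones did not. Without the mixed cells, over 112 WT and 77 mutant cells, none of the 10 genes was at least 2-fold lower, where 10.5% of 9160 genes were, and the same 3 mature genes were at least 2-fold higher, where 7.40% of genes were. Vpreb1 then had a log2 ratio of 0.30 (0.10 to 0.50), Igll1 0.47 (0.27 to 0.68) and Dntt 0.66 (0.33 to 1.0), each above 0, whereas Vpreb3 was at -0.95 (-1.09 to -0.82) and Rag1 at -0.83 (-1.28 to -0.39). Another removal took out every cell with 3 UMIs of a T, macrophage, neutrophil, endothelial, mesenchymal, Schwann or smooth muscle list. The endothelial list (Flt1, Kdr, Pecam1) alone reached this in 50 WT and 61 mutant B lineage cells. Pecam1 stood at 285 (WT) and 167 CPM (mutant) in B lineage cells, against 235 and 163 in other kept cells. This removal may thus also take out unmixed B lineage cells. After it, Vpreb3 (-1.18, -1.44 to -0.93) and Rag1 (-1.52, -2.72 to -0.50) were again at least 2-fold lower. So they were when cells over 20000 UMIs were left out (-1.44 and -1.39), while Ighm was not in either case (-0.29 and -0.65). With only the mixed cells left out, the shares of cells moved less. Vpreb3 was in 93.8% of the remaining WT cells and 68.8% of mutant cells (difference -24.9 points, -36.4 to -13.9), Rag1 in 46.4% and 28.6% (-17.9, -30.6 to -3.73), and Vpreb1 in 43.8% and 31.2% (-12.6, -25.7 to 1.55). Ighd was in 26.8% and 62.3% (35.6, 21.3 to 47.9). The Dntt share was 17.9% in WT and 23.4% in the mutant (5.52, -5.91 to 17.7).

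Each cell was also sorted by the genes it held. The classes use the same UMIs as the shares above, so they restate those shares cell by cell. Cells with at least 1 UMI of the 6 precursor genes and none of the 3 mature genes, called precursor-only, numbered 79 of 126 in WT (62.7%, 53.6 to 71.1) but 24 of 122 in the mutant library (19.7%, 13.0 to 27.8), a difference of -43.0 points (-53.0 to -31.3). Mature-only cells were 3 in WT (2.38%, 0.494 to 6.80) and 42 in the mutant (34.4%, 26.1 to 43.6), a difference of 32.0 points (23.1 to 41.0). Cells with genes of both kinds numbered 42 and 46, and cells with neither 2 and 10. The cells with both kinds were unlike between the libraries. They held a median of 14.5 precursor and 1 mature UMIs in WT, and 3 and 7.5 in the mutant. As shares of all kept cells, precursor-only cells made up 1.82% (1.44 to 2.26) of the WT library but 0.417% (0.267 to 0.620) of the mutant library, and mature-only cells 0.0689% (0.0142 to 0.201) and 0.730% (0.526 to 0.985). Of the 42 mature-only mutant cells 22 were mixed cells, and without mixed cells the precursor-only shares were 62.5% and 28.6% (difference -33.9, -46.2 to -19.6) and the mature-only shares 2.68% and 26.0% (23.3, 13.5 to 34.2).

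**Figure D3:**
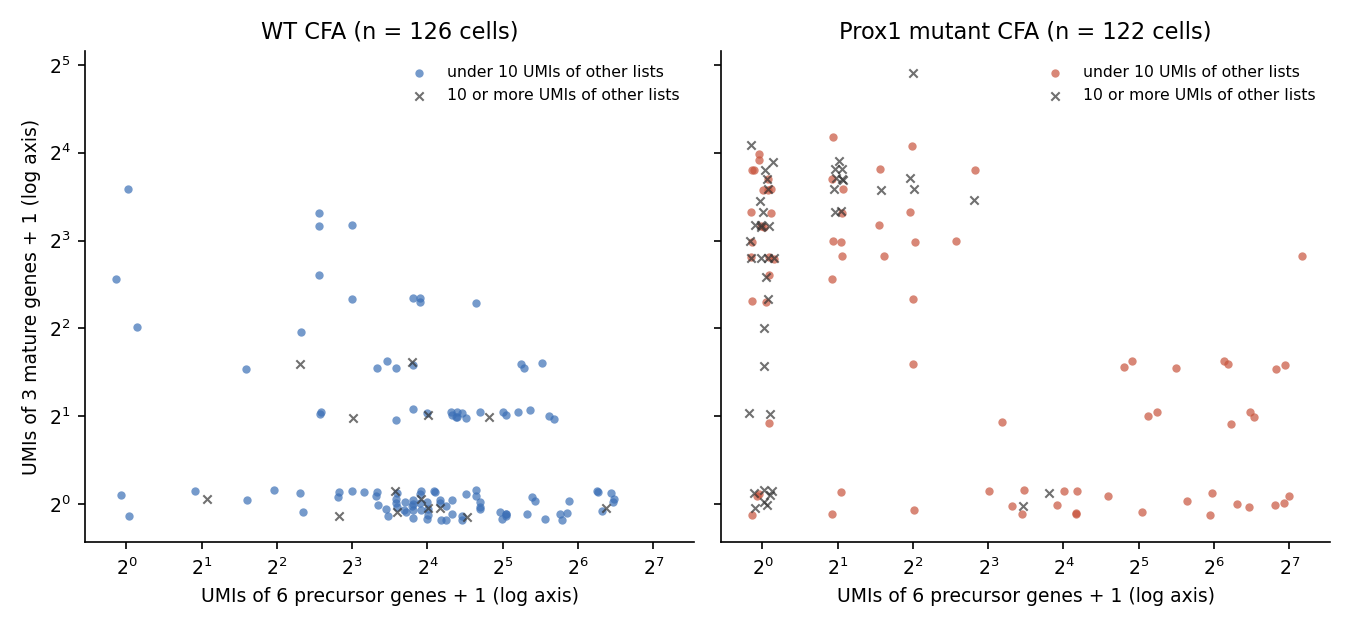
UMIs of the 6 precursor genes against UMIs of the 3 mature genes in each B lineage cell (1 added to both, log axes, points shifted slightly at random), for WT CFA (126 cells) and Prox1 mutant CFA (122 cells); crosses are cells with 10 or more UMIs of T, macrophage, neutrophil and mesenchymal markers. Most WT cells lie along the lower right with precursor UMIs, while mutant cells form a group with many precursor UMIs and a second with mature UMIs and 3 or fewer precursor UMIs.

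The makeup of the precursor cells differed between the libraries as well. Cells were put in an order of stages chosen after the values were seen: any Dntt, then Vpreb1 or Igll1 without Dntt, then Rag1 or Rag2 without these, then Vpreb3 as the sole precursor gene. A single UMI was enough for a stage, and the counts were not thinned. B lineage cells had a median depth of 5489 UMIs in WT and 12861.5 in the mutant. Whether depth bears on the numbers per stage was not tested. Cells with Dntt numbered 22 in WT and 20 in the mutant. Cells with Vpreb1 or Igll1 but no Dntt were 33 (26.2%) and 9 (7.38%), a difference of -18.8 points (-27.8 to -9.64), and cells with Rag genes alone or with Vpreb3 were 35 (27.8%) and 8 (6.56%), a difference of -21.2 points (-30.2 to -12.0). Cells with Vpreb3 alone were 31 and 33, but in the mutant 27 of the 33 also held Ighd and 29 held Ms4a1, against 7 and 12 of the 31 in WT. The Dntt, Vpreb1 or Igll1, and Rag groups held 2, 1 and 0 mixed cells in the mutant and 2, 0 and 8 in WT. The Vpreb3 alone group held 13 and 4. Without mixed cells, over 112 WT and 77 mutant cells, the Dntt group numbered 20 (17.9%) and 18 (23.4%). The Vpreb1 or Igll1 group then numbered 33 (29.5%) and 8 (10.4%), and the Rag group 27 (24.1%) and 8 (10.4%). Among the mutant cells with Dntt the median was 73 precursor UMIs, against 42.5 in WT. These counts were not scaled for depth, and the median depth of these cells was 11912.5 UMIs in the mutant and 5768.5 in WT. Scaled to CPM, Igll1 stood at 1273 (1144 to 1413) in the mutant cells with Dntt against 858 (749 to 979) in WT. Vpreb1 stood at 1295 (1164 to 1435) and 1084 (960 to 1218), and Vpreb3 at 1538 (1396 to 1691) and 1289 (1154 to 1436). Intervals of the libraries overlapped for Vpreb1 and Vpreb3. They also overlapped for Dntt, 681 (588 to 785) and 571 (482 to 671), and Rag1, 161 (118 to 216) and 175 (127 to 234). The 257491 UMIs of the WT group include cells of 59138, 39328 and 31418 UMIs, with 12, 0 and 16 of its 221 Igll1 UMIs. These deep cells lower the WT level of Igll1, and its difference from the mutant depends on them. In the mutant, 4 cells with Dntt were over 20000 UMIs. Levels without deep cells were not computed, so no difference in Igll1 is read from these values.

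**Figure D4:**
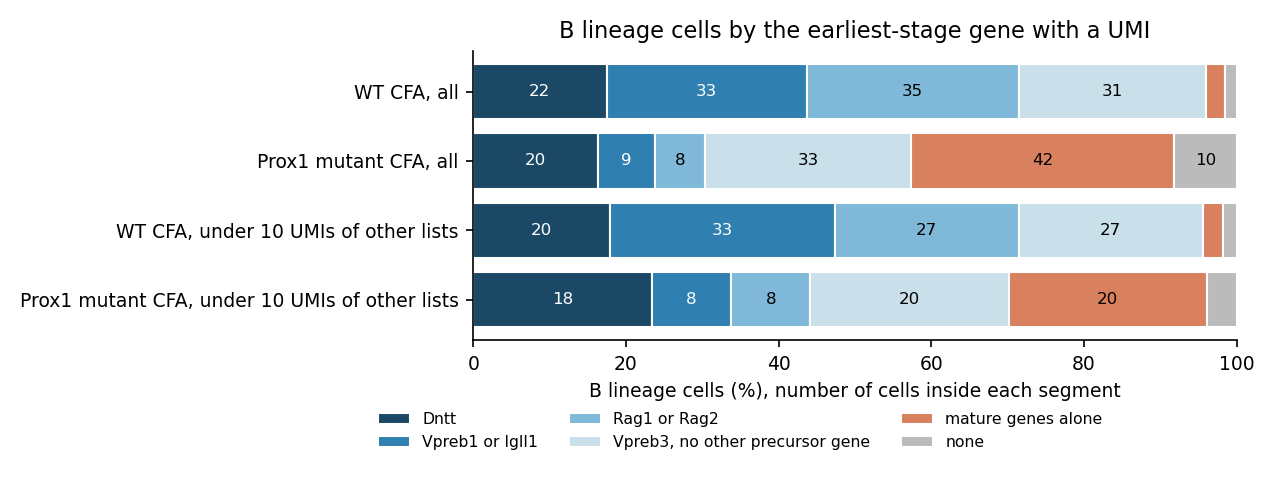
B lineage cells (%) by the earliest-stage gene with a UMI, in the order Dntt, Vpreb1 or Igll1, Rag1 or Rag2, Vpreb3, mature genes, for all B lineage cells and for those with under 10 UMIs of other lists; numbers are cells. The Dntt segment is of like width in WT CFA and Prox1 mutant CFA (22 and 20 cells), the next pair of segments is narrower in the mutant (33 and 35 against 9 and 8), and the segment of mature genes is wider (3 against 42).

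Within single cells the genes were found in sets. Of the cells with Vpreb1, 47 of 50 in WT (94.0%, 83.5 to 98.7) and 24 of 25 in the mutant (96.0%, 79.6 to 99.9) also held Igll1, against 3 of 76 and 2 of 97 cells without Vpreb1. Of the cells with Dntt, 20 of 22 in WT and 18 of 20 in the mutant held Vpreb1. Ms4a1 UMIs were rarely seen beside those of these genes. None of the 50 WT and 25 mutant cells with Vpreb1 held Ms4a1, which allows shares of cells with a Ms4a1 UMI of up to 6% and 12% (3 counts of the total), while 17 of 76 and 67 of 97 cells without Vpreb1 did. This limits detection and not expression, since cells with Ms4a1 held a median of only 3 (WT) and 4 (mutant) of its UMIs. Igll1, Rag1 and Dntt shared at most 1 cell each with Ms4a1 in either library. Fcer2a was found within cells that held the other mature genes: in the mutant all 45 cells with Fcer2a held Ighd and 42 held Ms4a1. Ighd was less exclusive, in 12 of the 50 WT cells and 13 of the 25 mutant cells with Vpreb1, but at low counts, since mutant cells with 10 or more precursor UMIs held at most 6 Ighd UMIs and a median of 2 where it was found. Vpreb3 overlapped with Ms4a1, in 14 of 17 WT and 31 of 67 mutant cells with Ms4a1.

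Ighm was compared between the classes because it serves at both stages. In WT it was at 1393 CPM in precursor-only and 2213 CPM in the 3 mature-only cells (log2 ratio of precursor-only to mature-only -0.67, -1.18 to -0.10). In the mutant it was at 921 and 415 CPM (1.15, 0.93 to 1.37), the opposite direction. Without mixed cells the mutant values were 977 CPM over 22 cells and 1156 CPM over 20 cells (-0.24, -0.51 to 0.03), and the WT values 1741 and 2213 CPM (-0.35, -0.86 to 0.22).

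Other genes that go with these stages were read from lists, by the ratio of precursor-only to mature-only cells on the scale of log2(CPM + 20), at least 2-fold in the same direction in both libraries. These classes were cut from the same cells, so the ratios are a description. With all 10 genes used as above, 5.25% of 5960 genes were higher and 1.98% lower in precursor-only cells, but WT had only 3 mature-only cells. Because Vpreb3 was found in cells with Ms4a1, the classes were also cut without it, which gave 65 and 20 cells in WT and 20 and 71 in the mutant, with 1.84% of 6242 genes higher and 1.83% lower. Without mixed cells as well (58 and 18 cells in WT, 18 and 36 in the mutant), 3.11% of 4369 genes were higher and 2.47% lower, and the values in the next paragraphs are from these cells unless stated.

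Genes of mature B cells were lower in precursor-only cells: 10 of 12 tested, led by Cd74 (WT log2 ratio -4.53, mutant -6.44), the invariant chain of antigen presentation, and Bank1 (-3.72 and -5.66), an adaptor of B cell receptor signalling. The class II genes H2-Aa (-3.26 and -4.57) and H2-Eb1 (-3.49 and -5.06) were lower in both too. With mixed cells kept, the count was 6 of 13. All 4 light chain genes were lower in precursor-only cells, Igkc by -2.50 in WT and -5.03 in the mutant, where with mixed cells kept Igkc alone passed in both. Much of the mutant Igkc count came from 1 mature-only cell that was not mixed, with 1786 Igkc and 90 Jchain UMIs. All mature-only mutant cells held 3360 Igkc UMIs with mixed cells kept. The ratio without this cell was not computed. With Vpreb3 among the precursor genes and mixed cells kept, Igkc was instead higher in precursor-only cells (2.72 in WT and 6.17 in the mutant). In WT 18162 of the 18727 Igkc UMIs of those precursor-only cells were in 1 cell. Lef1 (3.97 and 6.23) and Erg (2.57 and 5.67), factors of early lymphoid and blood progenitors, were higher in precursor-only cells of both libraries, Ikzf3 (-1.87 and -1.46), a factor of later pre-B cells, was lower, and the other 12 tested did not reach 2-fold in the same direction in both. With mixed cells kept, Lef1 and Erg still passed but Ikzf3 did not (-1.42 and -0.30). Sox4 was at -0.24 in WT and 4.27 in the mutant. Among cell cycle genes Mki67 (2.96 and 1.25) and Top2a (2.61 and 1.32) were higher in precursor-only cells, 2 of 6 tested, and with mixed cells kept 0 of 7. None of the 7 genes of pre-B receptor signalling and none of the 4 end-joining genes tested passed in both libraries, and 1 of 6 early surface genes did (Bst1, 1.03 and 1.35). With mixed cells kept, Bst1 was at 0.61 and -0.16 and none of 7 early surface genes passed.

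**Figure D5:**
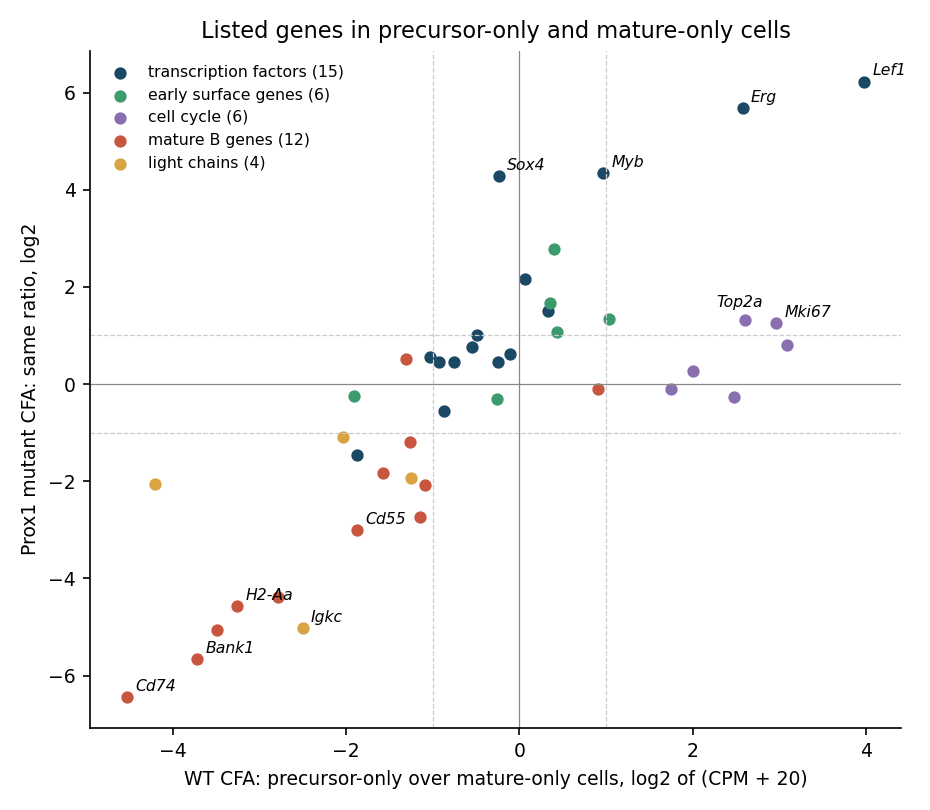
Log2 ratio of precursor-only to mature-only cells in WT CFA (x axis) and Prox1 mutant CFA (y axis), on the scale of CPM + 20, for the tested genes of 5 lists, with the classes cut without Vpreb3 and mixed cells left out; dashed lines mark 2-fold. Mature B and light chain genes lie at the lower left, and Lef1 and Erg at the upper right.

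Of all genes tested without Vpreb3 and with mixed cells kept, the highest in precursor-only cells by the smaller ratio of the libraries were Auts2 (3.50 and 3.90), Arpp21 (3.38 and 4.64), Lef1, Csgalnact1, Erg, 1700027J07Rik, Cdk6, Rnf220, Pcdh9 and Ust. Among the lowest were Bank1, Ltf (-2.87 and -3.16), Cd74, Btla (-2.45 and -2.64), Pgap1, H2-Eb1, H2-Aa, Cxcl2 and Igkc. Ltf, a granule protein of neutrophils, and Cxcl2, a chemokine of myeloid cells, are not B cell genes. Without mixed cells Ltf was still at least 2-fold lower in both libraries (-2.94 in WT and -1.09 in the mutant). Cxcl2 kept its sign but passed 2-fold in the mutant only (-0.27 and -3.45). Neutrophil RNA was thus still found in mature-only cells after mixed cells were left out. Btla (-3.15 and -4.02), an inhibitory receptor of lymphocytes, and Auts2 (3.4 and 4.24) also kept their direction. With Vpreb3 among the precursor genes the highest were Jchain, Lef1, Gfra1, Tmem108, Akap12, Auts2, Bcl7a, Xrcc6, Atp1b1 and Sorcs2, and the lowest Bank1, March1, Cd74, Ltf, H2-Aa, H2-Eb1, Vps37b, Btla, H2-Ab1 and Pgap1. The cuts with and without Vpreb3 shared 71 higher genes (of 313 and 115) and 35 lower genes (of 118 and 114).

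Between the libraries, the mature B genes moved with the mature members. Of 18 tested, 13 were at least 2-fold higher in mutant B lineage cells and none lower (median log2 ratio 1.75, against -0.17 over all genes tested), and without mixed cells 13 of 18 were as well (median 1.82, against -0.09). Bank1 went from 91.6 CPM (WT) to 978 (mutant), and Cd74 from 1194 to 4312 CPM. Cr2, the complement receptor CD21, had 0 UMIs in WT and 76 in the mutant, at least 13.1-fold higher with 3 UMIs set as the limit over the WT cells. Of the 16 transcription factors 9 were at least 2-fold lower in the mutant (median -1.04), beside 13.2% of all genes. Without mixed cells 2 were (Sox4 and Spib), a share near the 10.5% of all genes, and 1 was higher (Erg, 1.07). Early surface genes passed as lower in 3 of 8 and end-joining genes in 3 of 8, and without mixed cells in 0 of 8 and 1 of 8 (Lig4, -1.31). Cell cycle genes passed in neither direction with or without mixed cells, and pre-B receptor signalling genes in 1 of 7 (Blk, -1.60) and 0 of 7.

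Immunoglobulin output came from a handful of cells. In WT a single cell with 2059 Jchain UMIs, the joining chain of secreted antibody, held 18162 of the 19315 Igkc UMIs and 2825 of the 2835 Igha UMIs. In the mutant, 5 cells with at least 10 Jchain UMIs held 22059 of the 23886 Igkc UMIs. Of the 4 light chain genes 2 were at least 2-fold lower in the mutant, and 0 without mixed cells. Outside the Jchain cells Igkc stood at 866 CPM (WT) and 737 CPM (mutant). The WT cell also held 10 Vpreb3 UMIs and 3 of the 5 mutant cells held 5 in all, so Jchain led the precursor-only genes through these cells. Plasma cell genes (8 of 12 tested) were higher in the mutant in 3 and lower in 2, and without mixed cells higher in 4 and lower in none. Ighg2b had 10 UMIs in WT and 6385 in the mutant, of which 3666 were in 1 cell.

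Outside the B lineage cells, Ighm and Dntt were the members found at 3 or more UMIs in over 5 cells. Ighm had a UMI in 368 of 4226 other WT cells (8.71%) and 654 of 5635 other mutant cells (11.6%), with at least 3 UMIs in 127 and 136. It was more frequent in cells with T markers (22.8% and 20.8%) and macrophage markers (16.3% and 18.5%) than in cells with mesenchymal markers (3.87% and 10.7%), at median depths of 13129.5 and 5300.5, 17727 and 5590.5, and 12251 and 4757 UMIs. Of the 127 and 136 cells, 10 and 11 held 3 UMIs of the T list and 34 and 57 of the macrophage list. The neutrophil list was in 71 and 85, and the progenitor list (Elane, Prtn3, Mpo, Ctsg) in 59 and 33. The plasmacytoid dendritic list (Siglech, Bst2, Tcf4, Ccr9) was in 102 and 112. A UMI of Cd79a or Cd79b was in 26 of the 127 and 36 of the 136, so they may include B cells. Among all other kept cells, 863 and 3166 held 3 UMIs of the neutrophil list and 146 and 333 of the progenitor list. For the plasmacytoid dendritic list these numbers were 2783 and 2478. Dntt had at least 3 UMIs in 10 other WT cells and 14 other mutant cells. These cells also held Ighm (10 of 10 and 13 of 14), Il7r, the interleukin 7 receptor of lymphoid precursors (9 and 11), Flt3, a receptor of early progenitors (5 and 12), and Siglech, a mark of plasmacytoid dendritic cells (5 and 8), and none held Cd3e. Of the B lineage factors, Ebf1 was in 4 of these 10 WT cells and 10 of these 14 mutant cells, and Pax5 in 3 and 3. Vpreb1 was in 4 and 1 of them, Vpreb3 in 2 and 2 and Igll1 in 2 and 1. Among all other kept cells, Vpreb1 had at least 3 UMIs in 4 WT cells and 5 mutant cells, and Ighd in none and 1.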

How the data were processed

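Reads had been aligned to GRCm38 (mm10) with Cell Ranger 7.0.1. The values the authors deposited are UMI counts per gene and barcode, not normalized. The kit version differs between the sample records and the paper, and the counting of intronic reads, strand setting and removal of doublets are not given in the sources used here. Barcodes were kept from 500 genes upwards and below 10% mitochondrial UMIs, as in the study. No doublet caller was run; cells with UMIs of other lineages were left out as an alternative instead. The 10 genes, the lists and the marker genes were chosen with earlier results of these data known. UMIs were summed over cells and scaled to 1000000 (CPM). Intervals at 95% are exact Poisson for CPM, Clopper-Pearson for shares, Newcombe for differences and exact binomial splits for ratios; they cover counting error only, and with 1 library per condition no p-value was computed. A gene at 0 was set to 3 UMIs. Cells were thinned at random to 2000 UMIs. Ratios needed 20 UMIs over the cells compared (in each library for the classes, with a pseudocount of 20 CPM). Named from each list are up to 4 genes with the largest ratio of like sign, counts of 5 or fewer, and genes singled out after their values were seen (Sox4, Spib, Lig4, Blk, Cr2, Bst1, Ighg2b); of all genes the 10 highest and 10 lowest, of which 1 is not reported here. The scripts used Python 3.11.15, numpy 2.4.6, scipy 1.17.1, pandas 2.3.3, Biopython 1.88 and matplotlib 3.10.9, and were tested on simulated counts. Of the table's IDs 32158 were found in GENCODE M21. Alternatives changed the filters, the Cd79a and Cd79b minimum, the class genes, depth, scaling and mixed cells.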

Additional observations from a re-analysis of the deposited data

Results flagged for a closer look

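UMIs of these genes were also found in the barcodes that failed the filters on genes and mitochondrial share, which enter no comparison, above the limit of 3 UMIs that a count of 0 allows. There is no control sample against which to read them. In the 1357 WT barcodes left out there were 9 UMIs of Vpreb1, 8 UMIs of Vpreb3, 7 UMIs of Igll1, 4 UMIs of Rag1, 11 UMIs of Dntt, 55 UMIs of Ighm and 5 UMIs of Ighd. In the 2089 mutant barcodes left out there were 14 UMIs of Vpreb1, 9 UMIs of Vpreb3, 14 UMIs of Igll1, 10 UMIs of Dntt, 73 UMIs of Ighm, 8 UMIs of Ighd, 10 UMIs of Ms4a1 and 6 UMIs of Fcer2a. They were shallow, with a median of 1993 UMIs (WT) and 2585 (mutant). Set beside the kept B lineage cells, these barcodes held 55 Ighm UMIs against 1791 in WT and 73 against 1685 in the mutant.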

How the results depend on the processing

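Differences in share between the libraries kept their direction under all 14 alternatives, from -50.1 to -23.8 points for precursor-only and from 16.9 to 42.3 for mature-only cells. Shares moved beyond their counting intervals as follows. With 1 UMI of Cd79a and Cd79b enough, the precursor-only share in WT was 39.1% (difference -23.8 points) and the mature-only share in the mutant 20.3% (difference 16.9). Without mixed cells, an alternative chosen after seeing the data, the mutant shares were 28.6% precursor-only and 26.0% mature-only. Precursor-only cells in WT were 73.8% after thinning to 2000 UMIs, 71.4% after thinning to 1000 UMIs and 71.4% without Ms4a1. Without Vpreb3 they were 51.6%, with mature-only shares of 15.9% in WT and 58.2% in the mutant (difference 42.3). Genes higher and lower in precursor-only cells numbered 313 and 118; they were 115 higher without Vpreb3, 173 and 67 with at least 50 UMIs, 518 and 185 with a pseudocount of 5 CPM, and 136 higher without both Vpreb3 and mixed cells. Members at least 2-fold lower in the mutant numbered 3, but 5 with a UMI of each of Cd79a and Cd79b, 0 without mixed cells, and 2 (Vpreb3 and Rag1) without cells with 3 UMIs of another list or, chosen after seeing the data, over 20000 UMIs; the cause was not tested. Single log2 ratios of mutant to WT moved beyond their intervals under 6 of 13 alternatives for Vpreb1 and Igll1, 8 for Vpreb3 and Ighm, 4 for Dntt, 3 for Rag1, 2 for Rag2, Ms4a1 and Fcer2a and 1 for Ighd. Without cells with 3 UMIs of another list Vpreb1 went from -0.83 to 0.28, Igll1 from -0.61 to 0.27 and Dntt from -0.58 to 1.30, and without cells over 20000 UMIs to -0.02, 0.12 and 0.08. Rag2 ranged from -1.07 to 0.63. Members at least 2-fold higher were 3 or 4 under all 13 alternatives, and none of the 6 members past 2-fold changed direction. Leaving out a replicate was not possible with 1 library per condition. No paired analysis was possible because each condition has 1 library. Rag2 was too thinly counted for a difference of its measured size to be told from counting error.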
